A study of Mus musculus with 32 samples.

Results

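The genes described here are those of MHC class I peptide loading and the immunoproteasome: Tap1, Tap2, Tapbp, B2m, Psmb8, Psmb9, Psmb10, Psme1, Psme2 and Nlrc5. These 10 genes were chosen by name, from what the proteins do, out of the 18193 genes annotated on the array, and each was read from the brightest probe set (a group of short probes for a transcript) that carried its symbol alone. Measurements were obtained for 9 of the 10, all among the 13016 genes tested. The probe set of Psme2 is also annotated to Psme2b, so it gives no value for Psme2.

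The series followed the mesentery, the fatty sheet that carries vessels to the gut, after pristane (TMPD), a mineral oil hydrocarbon that induces plasma cell tumours in susceptible mice. The treated groups received 0.5 ml pristane into the peritoneal cavity. They were BALB/c mice on day 3 (3 arrays), BALB/DBA F1 hybrids on day 3 (3 arrays), DBA mice on day 3 (3 arrays), BALB/c mice on day 18 (4 arrays) and DBA mice on day 18 (3 arrays). Each was set against untreated mice of its own strain whose array titles carry the same run of codes: 3 BALB/c, 3 F1 and 3 DBA controls in the day 3 run, 4 BALB/c controls in the BALB/c day 18 run and 3 DBA controls in the DBA day 18 run. No group carries a transgene or an engineered allele per the labels, which give neither age nor sex, name DBA without a substrain, and are silent on whether each array stands for its own animal. P-values therefore measure the spread between these arrays, which may be technical.

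Class I molecules show peptides from inside the cell to cytotoxic T cells. Proteasomes cut proteins into peptides, the TAP transporter moves these into the endoplasmic reticulum, tapasin holds the transporter and an empty class I molecule together, and the heavy chain leaves for the surface with its light chain, beta-2-microglobulin, once a peptide is bound. Interferons raise the transcription of most of these genes, in part through NLRC5, and exchange the catalytic subunits of the proteasome for inducible ones that favour peptides suited to class I.

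Psmb9, Tap1, Psmb8 and Tap2 lie in this order on chromosome 17 in the RefSeq annotation of GRCm38.p6, and Tapbp lies on the same chromosome. Promoter windows from RefSeq, from 250 bases before to 50 after an annotated start on GRCm38.p6, were at hand for 8 of the 10 genes. The windows of Tap1 and Psmb9 overlap by 275 bases, because the 2 genes are read in opposite directions from starts 226 bases apart. The windows of 4 genes are shown. That of Tap1 overlaps with that of Psmb9, those of Psmb8 and Psme1 hold interferon-type elements, and that of B2m holds the most kinds of element. They were chosen with the responses known, and the part of any element in the responses was not tested. Capitals mark matches, on either strand, to GAAA and GAAA with 2 bases of any kind between (the interferon-stimulated response element), TTCNNNGAA (the gamma-activated site), CCAAT (the Y box) and TGACG (the core of the X2 box).
Tap1: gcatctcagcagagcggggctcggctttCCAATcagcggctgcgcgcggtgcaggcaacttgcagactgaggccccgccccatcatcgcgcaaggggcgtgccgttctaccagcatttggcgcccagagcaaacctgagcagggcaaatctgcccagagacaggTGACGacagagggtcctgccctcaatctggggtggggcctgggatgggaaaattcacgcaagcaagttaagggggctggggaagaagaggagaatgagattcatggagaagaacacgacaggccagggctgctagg
Psmb8: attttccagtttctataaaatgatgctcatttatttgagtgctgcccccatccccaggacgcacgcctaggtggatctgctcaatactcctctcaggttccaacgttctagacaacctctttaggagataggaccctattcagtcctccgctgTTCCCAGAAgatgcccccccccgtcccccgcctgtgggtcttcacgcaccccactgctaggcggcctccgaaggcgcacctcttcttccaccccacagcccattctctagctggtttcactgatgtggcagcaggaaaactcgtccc
Psme1: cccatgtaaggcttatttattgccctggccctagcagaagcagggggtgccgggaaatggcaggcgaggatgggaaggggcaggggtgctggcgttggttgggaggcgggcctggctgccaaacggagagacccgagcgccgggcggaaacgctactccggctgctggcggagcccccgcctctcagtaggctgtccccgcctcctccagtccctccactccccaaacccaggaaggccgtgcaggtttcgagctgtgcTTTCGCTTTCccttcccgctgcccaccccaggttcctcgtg
B2m: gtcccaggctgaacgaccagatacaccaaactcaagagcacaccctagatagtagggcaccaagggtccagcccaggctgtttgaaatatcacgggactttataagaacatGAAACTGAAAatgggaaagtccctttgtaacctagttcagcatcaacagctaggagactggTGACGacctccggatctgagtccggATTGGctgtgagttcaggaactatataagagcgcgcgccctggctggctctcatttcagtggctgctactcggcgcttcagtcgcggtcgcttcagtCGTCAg
The Tap1 window is chr17:34187306-34187605 on the plus strand, that of Psmb8 chr17:34197945-34198244 on the plus strand, that of Psme1 chr14:55578244-55578543 on the plus strand and that of B2m chr2:122147437-122147736 on the plus strand. The interferon-stimulated response element was found in the windows of B2m and Psme1, 2 of 8, and in 3.44% of 32851 promoter windows of the same length. TTCNNNGAA was found in that of Psmb8 alone, 1 of 8, against 8.3% of all windows. CCAAT stood in the windows of B2m, Psmb9, Tap1 and Tapbp, and TGACG in those of B2m, Psmb9, Psme2 and Tap1, so each was in 4 of 8, against 37.4% and 20.8% of all windows. A kappaB-like pattern, GGG and CC with 5 bases of any kind between, was in 5 of 8 and in 50.8% of all windows, and is not marked. Matches between these patterns were allowed to overlap, and a match describes letters, not a working site. The Tap1 and Psmb9 windows overlap, and their Y box and X2 box matches are the same letters, counted for each gene. Both windows share kappaB-like matches as well. For these patterns the 8 windows are not independent, so their counts do not show an excess over all windows.

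The 32 arrays had median signals of 90.6 to 135.3, and each correlated with its nearest neighbour at 0.967 or more, except BALB/c control replicate 2 of the day 18 run at 0.859. On that array the summed signal of 5 pancreatic acinar markers was 615834, against 777 to 12319 on the other 3 controls of its group and 1795 to 92533 on the 4 treated arrays. This array is named the array with acinar signal below, for its far higher signal. Beside the BALB/c values of day 18 stand those without it, which are not free of acinar signal. Without that array the 5 markers had a median log2 difference of 1.76, higher in treated than in control BALB/c arrays of day 18, and 1 of them was called. The adipocyte markers, which the labelled tissue should hold, had summed signals of at least 20888 on every array, and the mesothelial markers of at least 8647. Mean beta-actin 3'/5' signal ratios were lower in treated than in control arrays of each response, for example 1.56 ± 0.170 in treated F1 mice and 2.10 ± 0.0412 in F1 controls (SD, n = 3 each). The ranges overlapped in BALB/c mice on day 3, at 1.63 to 2.21 in treated arrays and 2.10 to 2.60 in controls. Xist, which is transcribed in females, read 12294 to 16808 on the 3 treated F1 arrays and 55 to 107 on the 3 F1 controls, so treatment and sex cannot be told apart in the F1 response. The part of any of these in the responses below was not tested, except where a value without the array is given. Values with Xist in the fit are also given, but cannot tell sex from treatment in F1 hybrids.

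Most of the class I loading and immunoproteasome genes were higher after pristane in F1 hybrids on day 3 and in both parental strains on day 18, fewer in BALB/c mice on day 3, and 1 in DBA mice on day 3. In F1 hybrids 8 of the 9 genes rose, with a median log2 change of 2.32, where 18.6% of all genes tested rose and the median of all genes was -0.04. In BALB/c mice on day 3, 6 of 9 rose with a median of 0.93, against 18.3% of all genes and a median of -0.01. Tap1 alone rose in DBA mice on day 3 and the median was 0.29, against 16.4% and 0.00. On day 18, 8 of 9 rose in BALB/c mice, with a median of 0.84 against 21.7% and -0.03, and 8 of 9 rose in DBA mice, with a median of 1.32 against 22.4% and -0.04. No gene of the 9 fell in any response, against 17.2%, 18% and 13.4% of all genes that fell in BALB/c, F1 and DBA mice on day 3 and 22.2% and 25% in BALB/c and DBA mice on day 18. "Rose" and "called" stand for an adjusted p under 0.05 in limma with Benjamini-Hochberg adjustment over all 13016 genes, and changes are on the scale of log2(signal + 24.9), which understates those of dim genes. In whole tissue, more cells of a type and more RNA per cell cannot be told apart. Leaving out the array with acinar signal narrowed the spread that all groups share: the standard error of Tapbp in BALB/c mice on day 3, for example, was 0.11 without it and 0.19 with it. The counts without it were 8 in BALB/c and 4 in DBA mice on day 3, with 8 in each of the other 3 responses. The share of all genes called without it is not given here or below. Counts without it therefore cannot be told apart from a general gain in calls. In BALB/c mice on day 18, where it is itself a control, the changes without it were 1.53 for Tap1, 0.66 for Tap2, 0.50 for Tapbp, -0.07 for B2m, 1.25 for Psmb8, 1.00 for Psmb9, 1.21 for Psmb10, 0.53 for Psme1 and 0.86 for Nlrc5, with a median of 0.86. All but that of B2m were called, with adjusted p of at most 0.0017.

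**Figure D1:**
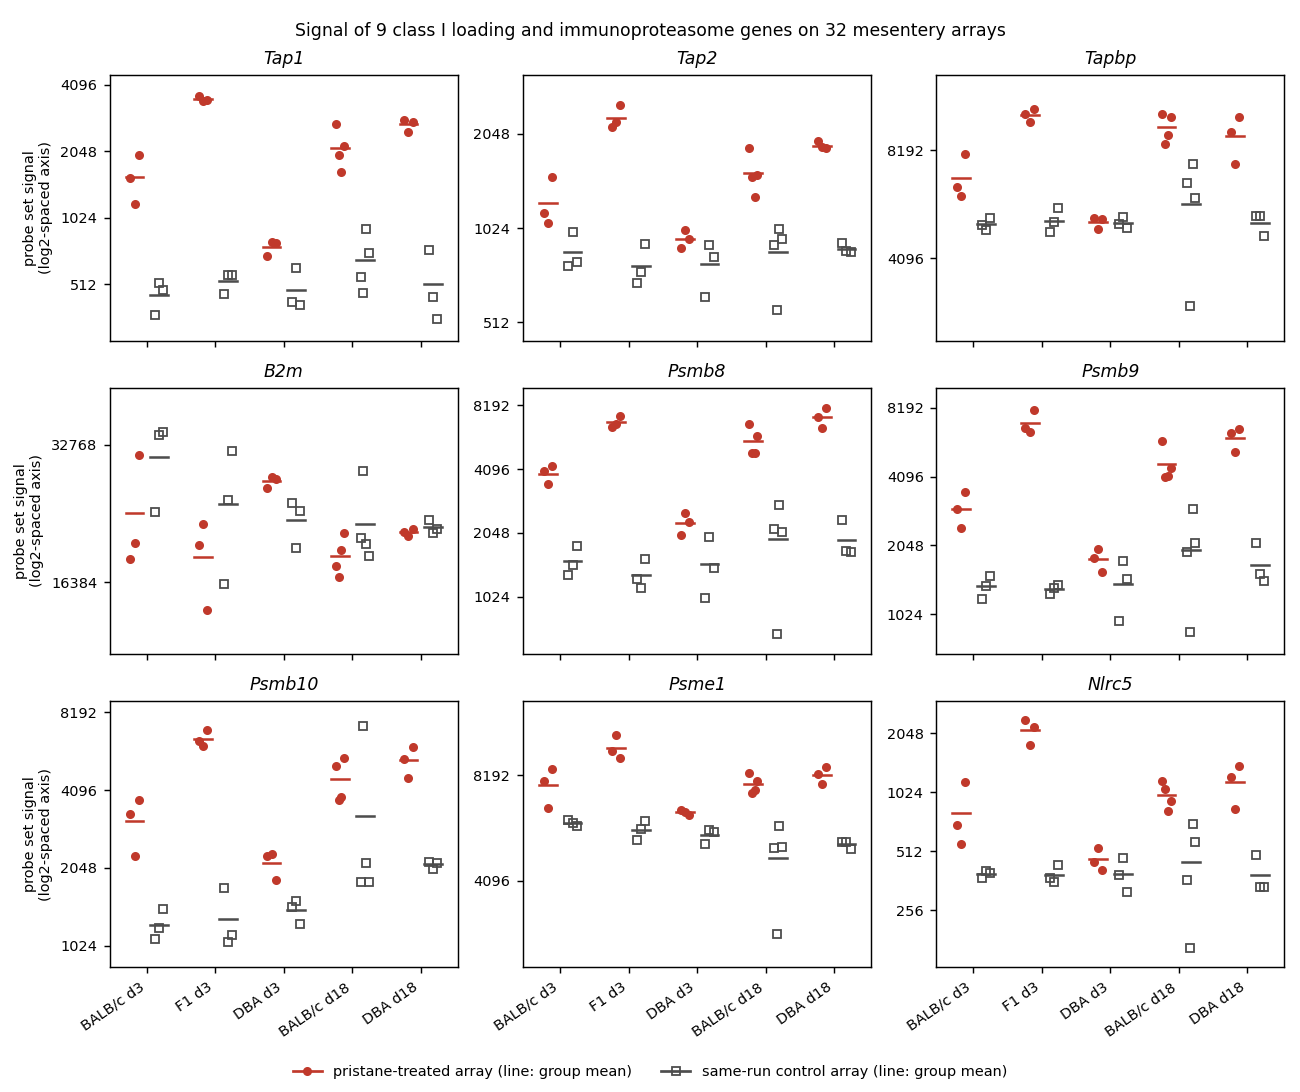
Signal of each gene (vertical axis, log2-spaced, with its own range in each panel) on every array, by strain and day (d3, day 3; d18, day 18), with treated arrays as filled circles left of their controls as open squares and group means as lines. The treated F1 arrays of Tap1 sit between 3449.9 and 3650.5, far above the F1 controls, whereas the treated DBA arrays of day 3 sit just above their controls, and B2m shows no such separation in most groups.

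Tap1 encodes a subunit of the heterodimeric peptide pump of the endoplasmic reticulum, and it was the only one of the 9 genes called in all 5 responses. Its signals in treated F1 hybrids were 3650.5, 3449.9 and 3483, against 463, 564 and 566 in F1 controls. BALB/c mice of day 3 had 1548, 1188 and 1964 in treated arrays and 372, 521 and 485 in controls. DBA mice of day 3 had 691, 792 and 784 in treated arrays and 424, 606 and 415 in controls. No treated array overlapped the controls of its group, but the lowest treated DBA array stood close above the highest DBA control. The log2 changes on day 3 were 2.68 ± 0.23 in F1 hybrids (± SE, adjusted p = 9.2e-10), 1.70 ± 0.23 in BALB/c mice (1.9e-06) and 0.64 ± 0.23 in DBA mice (0.034). On day 18 the treated BALB/c arrays read 2719, 1968, 1646 and 2175, against 555, 469, 910.3 and 707 in controls. The treated DBA arrays of day 18 read 2832, 2518 and 2783, against 730.1, 451 and 355 in controls. Both groups lay wholly above their controls, and the changes were 1.67 ± 0.20 in BALB/c mice (adjusted p = 1.5e-07) and 2.41 ± 0.23 in DBA mice (3.8e-09). The call in DBA mice on day 3 rested on every array of that group but DBA control replicate 2: leaving out any of treated replicates 1, 2 and 3 or control replicates 1 and 3 gave changes of 0.55 to 0.70 with adjusted p of 0.056 to 0.13, and median centring and quantile normalization gave 0.54 and 0.55 with 0.075 and 0.076.

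Tap2, the other subunit of the pump, moved with smaller changes. Its signals were 2149, 2239 and 2534 in treated F1 hybrids and 681, 743 and 908 in F1 controls, a log2 change of 1.55 ± 0.17 (adjusted p = 1.1e-07). The treated arrays stood apart from the controls. It rose by 0.84 ± 0.15 in BALB/c mice (5.8e-05) and 1.07 ± 0.17 in DBA mice (1.4e-05) on day 18, and by 0.51 ± 0.17 in BALB/c mice on day 3 (0.024). The BALB/c day 3 call was lost without treated replicate 3 (0.37, adjusted p = 0.15) or control replicates 1 or 3 (0.45 and 0.46, adjusted p of 0.088 and 0.08), and under median centring (0.42, 0.057). Tap2 in DBA mice on day 3 averaged 946 ± 62.8 in treated arrays and 784 ± 150.0 in controls (SD, n = 3 each) and was not called (0.28, 95% interval -0.08 to 0.64, adjusted p = 0.24).

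Tapbp encodes tapasin, which joins the pump to the class I molecule. Treated F1 arrays read 10359.7, 9824 and 10679, against 4832, 5156 and 5644 in F1 controls, and the groups did not overlap. It rose by 0.98 ± 0.19 in F1 hybrids (adjusted p = 0.00029) and, on day 18, by 0.79 ± 0.17 in BALB/c mice (0.00041) and 0.79 ± 0.19 in DBA mice (0.0014). Without the array with acinar signal the BALB/c day 18 change was 0.50 (adjusted p = 0.00018). In BALB/c mice on day 3 the treated arrays lay above the controls without passing the test (0.42, adjusted p = 0.097), and without the array with acinar signal the same difference passed (0.42, adjusted p = 0.0024). Tapasin in DBA mice on day 3 averaged 5170.2 ± 211 in treated arrays and 5135 ± 184 in controls, a difference of 0.01 (95% interval -0.39 to 0.41). The BALB/c day 18 call was lost in a fit to those arrays alone (adjusted p = 0.055). Its second probe set gave the same calls in all 5 responses, with changes of 0.47, 1.42, 0.50, 0.86 and 0.86 in BALB/c, F1 and DBA mice on day 3 and BALB/c and DBA mice on day 18.

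B2m encodes beta-2-microglobulin, the light chain of every class I molecule, and was not called in any response. Its signals were 19756, 21945 and 14263 in treated F1 hybrids and 16245, 24792 and 31717 in F1 controls. Those of BALB/c mice on day 3 were 18382, 19949 and 31165 in treated arrays and 23293, 34368 and 34889 in controls. In both strains the treated and control ranges overlapped. In DBA mice on day 3 the treated arrays, 26377, 27878 and 27579, all exceeded the controls, 24476, 19498 and 23418. The log2 differences, in the order BALB/c, F1 and DBA on day 3 and BALB/c and DBA on day 18, were -0.43, -0.35, 0.29, -0.21 and -0.04, with adjusted p of 0.12, 0.21, 0.34, 0.38 and 0.91. The 95% interval in F1 hybrids, -0.79 to 0.09, excluded a rise of the size seen for Tap1. Leaving out BALB/c treated replicate 3 or control replicate 1 of day 3 brought a call of lower B2m in treated BALB/c mice (-0.66 and -0.62, adjusted p of 0.023 and 0.04), leaving out F1 control replicate 1 brought one in treated F1 hybrids (-0.61, 0.028), and array weights called both (-0.60 and -0.49). A second B2m probe set gave -0.33, -0.24, 0.12, -0.19 and 0.18, none of them called.

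Psmb8, the inducible catalytic subunit that takes the place of Psmb5, rose in 4 of the 5 responses. Its signals in treated F1 hybrids were 6486, 6654 and 7271, against 1235, 1120.5 and 1549 in F1 controls. Treated BALB/c arrays of day 3 read 4011, 3466 and 4213, against 1303, 1444 and 1772 in controls. Treated DBA arrays of day 3 read 1990.5, 2537 and 2294, against 1008, 1956 and 1398 in controls. All treated arrays were above their controls, by a wide gap in F1 and BALB/c mice and by a narrow one in DBA mice. The changes were 2.38 ± 0.30 (adjusted p = 7.8e-07), 1.36 ± 0.30 (0.00086) and, not called, 0.68 ± 0.30 (0.093) in F1, BALB/c and DBA mice. Without the array with acinar signal the DBA difference kept its size and passed (0.68, adjusted p = 0.0051). On day 18 the treated DBA arrays read 7227, 6363 and 7908, against 2365, 1686 and 1657 in controls, and the treated BALB/c arrays 6689, 4864, 4871 and 5888, against 2128, 686, 2782 and 2067. Both groups again lay above their controls, with changes of 1.91 ± 0.30 in DBA mice (9.5e-06) and 1.68 ± 0.26 in BALB/c mice (9.3e-06). A second, dim Psmb8 probe set, above the filter on 5 arrays, disagreed on day 3: it gave 0.22 in BALB/c mice (adjusted p = 0.68) and 0.95 in DBA mice (0.041).

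Psmb9 replaces Psmb6 in the inducible proteasome and shares its promoter with Tap1. Treated F1 hybrids read 6708, 6401 and 7995, against 1252, 1334 and 1376 in F1 controls. Treated BALB/c mice on day 3 read 2965, 2429.9 and 3515, against 1200.2, 1366 and 1513 in controls. Treated DBA mice on day 3 read 1807, 1983 and 1571, against 961, 1749 and 1464 in controls. The F1 and BALB/c groups stood apart from their controls, and the DBA group overlapped with its own. The changes were 2.39 ± 0.27 in F1 hybrids (adjusted p = 1.2e-07), 1.10 ± 0.27 in BALB/c mice (0.0022) and 0.39 in DBA mice, the last not called (0.3). On day 18 Psmb9 averaged 6049 ± 723 in treated and 1685 ± 356 in control DBA mice (SD, n = 3 each), a change of 1.84 ± 0.27 (3.7e-06). BALB/c mice of day 18 averaged 4624 ± 848 in treated arrays and 1955 ± 857 in controls (SD, n = 4 each), a change of 1.34 ± 0.23 (4.4e-05).

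Psmb10 replaces Psmb7. It rose by 2.32 ± 0.32 in F1 hybrids (adjusted p = 2.3e-06), where treated arrays read 6331, 6070.2 and 6968 and controls 1713, 1056 and 1130.0, and the ranges were far apart. It also rose in BALB/c mice on day 3 (1.29 ± 0.32, 0.0022) and DBA mice on day 18 (1.32 ± 0.32, 0.0012), and was not called in DBA mice on day 3 (0.60, 0.17), although the 3 treated arrays there, 2269, 2309.6 and 1843, exceeded the controls, 1447, 1526 and 1246. In BALB/c mice on day 18 the treated arrays read 5055, 3756, 3842 and 5440.2, against 1809, 7225, 2135 and 1809.6 in controls. Control replicate 2, the array with acinar signal, was the highest of all 8. The change was 0.74 ± 0.28 with that array (adjusted p = 0.031) and 1.21 without it. The call was lost in a fit to the day 18 BALB/c arrays alone (adjusted p = 0.23), under median centring (0.65, 0.061), and without control replicates 1, 3 or 4 or treated replicates 1 or 4 (0.55 to 0.68, adjusted p of 0.081 to 0.12). On the same array Tap1, Tap2, Tapbp, Psmb8, Psmb9, Psme1 and Nlrc5 were at the lowest signal of their group.

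Psme1 encodes the alpha subunit of PA28, a ring that caps the proteasome and speeds peptide release. Its changes stayed under 1 on the log2 scale: 0.78 ± 0.15 in F1 hybrids (adjusted p = 0.00025), 0.75 ± 0.13 in BALB/c mice on day 18 (4.7e-05) and 0.66 ± 0.15 in DBA mice on day 18 (0.0008). F1 arrays read 9616, 10683 and 9155 when treated and 5362, 5741 and 6052 as controls. Treated arrays lay above all controls in each of the 5 responses, including BALB/c (0.35, 0.075) and DBA mice (0.22, 0.3) on day 3, where the gene was not called. Both passed without the array with acinar signal, with adjusted p of 0.0015 and 0.041.

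Nlrc5 encodes the transactivator that assembles on class I promoters. Its signals in treated F1 hybrids were 2384, 1772 and 2195, against 376, 356 and 434 in F1 controls. BALB/c mice of day 3 had 699, 559 and 1150.3 in treated arrays and 375, 403 and 396 in controls. DBA mice of day 3 had 453, 533 and 408 in treated arrays and 386, 469.6 and 318 in controls. The F1 and BALB/c groups did not overlap with their controls, while the DBA groups did. Nlrc5 rose by 2.37 ± 0.32 in F1 hybrids (adjusted p = 1.6e-06) and 0.93 ± 0.32 in BALB/c mice (0.023), where the call depended on treated replicate 3 (without it 0.64, adjusted p = 0.16) and on control replicates 1 (0.90, adjusted p = 0.058) and 3 (0.94, at the threshold), and it was lost under quantile normalization (0.84, 0.055). The DBA difference was 0.24 (95% interval -0.40 to 0.89, adjusted p = 0.61). On day 18 Nlrc5 rose by 1.50 ± 0.32 in DBA mice (0.00031) and 1.25 ± 0.27 in BALB/c mice (0.00052).

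**Figure D2:**
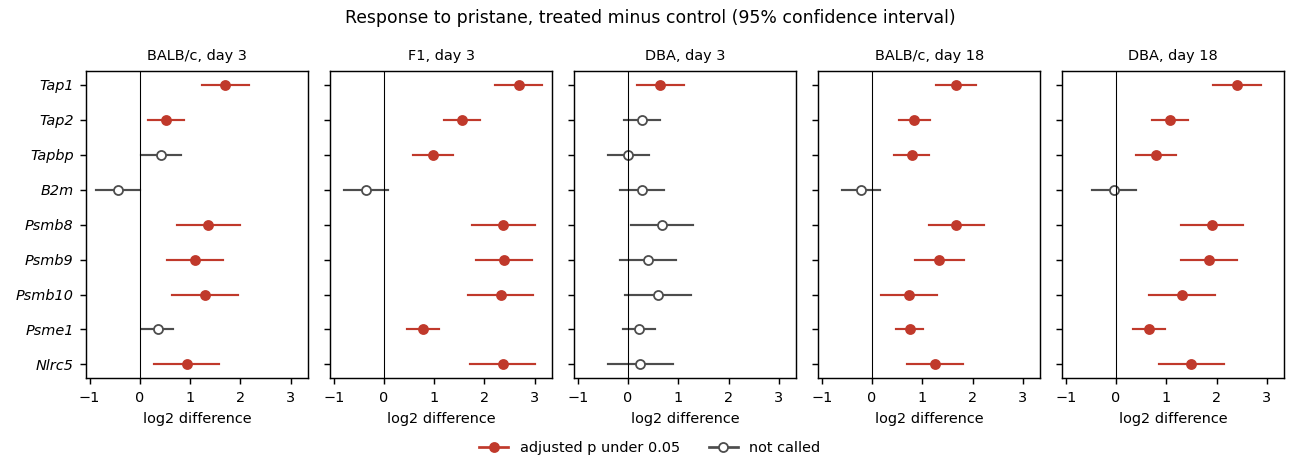
Log2 difference between treated and control arrays (horizontal axis) for the 9 genes in the 5 responses, with 95% confidence intervals from limma, and filled red points where the adjusted p was under 0.05. Points of the F1 panel lie farthest right, with Tap1 at 2.68, those of the DBA day 3 panel lie between 0.01 and 0.68, and B2m is not called in any panel.

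Counted over all 5 responses, 31 of the 45 differences were called higher and 0 lower, and 36 of the 45 had every treated array above every control. By response that separation was seen for 8 genes in BALB/c mice on day 3, 8 in F1 hybrids, 5 in DBA mice on day 3, 7 in BALB/c mice on day 18 and 8 in DBA mice on day 18. The shares of all tested genes that separated this way were 26.6%, 25.5%, 27.3%, 17.9% and 28.6% in the same order. The 5 in DBA mice on day 3 were Tap1, B2m, Psmb8, Psmb10 and Psme1. Of the 14 differences that were not called, 5 belonged to B2m, 7 to other genes in DBA mice on day 3, and 2 to Tapbp and Psme1 in BALB/c mice on day 3. With Xist as a covariate, which rests on the day 18 groups that hold both high and low arrays, the F1 response kept its 8 calls, with Tap1 at 2.92 and Psmb10 at 1.96.

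The treated groups stood in the same order for 6 of the 9 genes (Tap1, Tap2, Psmb9, Psmb10, Psme1 and Nlrc5), although strain, day and run of codes differ between them together. Tap1 averaged 3528 ± 108 in treated F1 hybrids, 2711 ± 169 in treated DBA mice on day 18, 2127 ± 451 in treated BALB/c mice on day 18, 1567 ± 388 in treated BALB/c mice on day 3 and 756 ± 56.3 in treated DBA mice on day 3 (SD). The F1 range stood apart from the next group. Treated DBA and BALB/c mice on day 18 overlapped, as did treated BALB/c mice on day 18 and day 3. Treated BALB/c arrays of day 3, at 1187.9 or more, stood apart from treated DBA arrays of day 3, at 792.5 or less. Treated DBA mice on day 3 overlapped with the BALB/c controls of the day 18 run. The 5 control groups, the array with acinar signal included, averaged from 459 ± 78 to 660.3 ± 194 and overlapped with their neighbours in order. Psmb8 had treated DBA mice on day 18 first, 7166 ± 774, overlapping with treated F1 hybrids, 6804 ± 413. B2m had no such order, with BALB/c controls of the day 3 run at the top, 30849.9 ± 6549.9, treated F1 hybrids at the bottom, 18655 ± 3958, and overlap between all neighbours.

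The F1 response exceeded the DBA response on day 3 for 6 of the 9 genes, where 1.68% of all genes tested had a larger response in F1 hybrids. The differences in log2 response were 2.12 ± 0.45 for Nlrc5 (adjusted p = 0.0065), 2.04 ± 0.32 for Tap1 (0.00028), 1.99 ± 0.38 for Psmb9 (0.0027), 1.73 ± 0.45 for Psmb10 (0.038), 1.70 ± 0.43 for Psmb8 (0.03) and 1.27 ± 0.25 for Tap2 (0.003). Tapbp (0.97, 0.067), Psme1 (0.56, 0.24) and B2m (-0.63, 0.37) were not called. With Xist in the fit Psmb10 was no longer called (1.38, adjusted p = 0.18), Tapbp was (1.16, 0.036), and Tap1 stood at 2.27. That fit cannot tell sex from treatment in F1 hybrids. The dim second Psmb8 probe set gave 0.58 (adjusted p = 0.74), and an ordinary linear model called 4 of the 9, losing Psmb8 (adjusted p = 0.054) and Psmb10 (0.065). These calls were also lost on leaving out single arrays: that of Psmb8 without DBA treated replicates 1 or 3, DBA control replicates 2 or 3, F1 treated replicates 2 or 3 or F1 control replicates 1 or 2 (1.46 to 1.71), and that of Psmb10 without any of these 12 arrays but F1 control replicate 1 (1.60 to 1.81). Without the array with acinar signal 8 of the 9 were called, and leaving out single arrays gave counts of 4 to 8.

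The BALB/c response was not called different from the DBA response on day 3 for any of the 9 genes, where 0.499% of all genes were, in either direction. At an unadjusted p under 0.05 there were 2, Tap1 higher and B2m lower in BALB/c, and an ordinary linear model called 0. Tap1 differed by 1.06 ± 0.32 (95% interval 0.40 to 1.72, adjusted p = 0.17), and Nlrc5 by 0.69 ± 0.45 (95% interval -0.23 to 1.60). A fit to the arrays of that comparison alone called 1, and array weights 2. Nor was the F1 response called different from the BALB/c response for any of the 9, against 0.223% of all genes in either direction. There, 6 of the 9 had an unadjusted p under 0.05, all larger in F1 hybrids, led by Nlrc5 at 1.44 ± 0.45 (adjusted p = 0.2) and Tap2 at 1.04 ± 0.25 (0.066). An ordinary linear model called 0, but without the array with acinar signal 4 of 9 were called: Nlrc5, Psmb9, Tap2 and Psmb10, with adjusted p of 0.026, 0.02, 0.012 and 0.038. These comparisons share their response arrays and are not independent of each other.

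In DBA mice the response of day 18 exceeded that of day 3 for Tap1, by 1.77 ± 0.32 (adjusted p = 0.0017), and Psmb9, by 1.45 ± 0.38 (0.03), 2 of 9, where 2.47% of all genes had a larger response on day 18. The other genes had adjusted p of 0.067 to 0.64. Among them Nlrc5 differed by 1.26 (95% interval 0.34 to 2.17) and Psmb8 by 1.23 (0.35 to 2.11). Without the array with acinar signal 7 of 9 were called, all but Psmb10 and B2m, and the separate fit and array weights each called 8. Without DBA treated replicate 3 or control replicates 2 or 3 of day 18, or treated replicate 3 or control replicates 2 or 3 of day 3, Tap1 was the sole call and Psmb9 had adjusted p of 0.068 to 0.096. The 2 days lie in different runs of codes, so day and run cannot be told apart beyond the controls that each run holds. Mean beta-actin 3'/5' ratios in treated and control DBA mice were 1.19 and 1.29 on day 18 and 1.92 and 2.44 on day 3. Xist was high on 1 of 3 arrays in each DBA group of day 18 and on all 3 in each of day 3. With Xist in the fit Tap1 differed by 1.76 and Psmb9 by 1.44, and the part of the ratios was not tested. In BALB/c mice 0 of 9 were called between day 18 and day 3, against 0.361% of all genes in either direction, with 0 at an unadjusted p under 0.05, 0 in an ordinary linear model and a median difference of 0.32. That median was -0.06 without the array with acinar signal, again with 0 called and 0 at an unadjusted p under 0.05. The BALB/c response of day 18 was not called different from the DBA response of day 18 for any gene, against 0.983% of all genes in either direction. Tap1, at -0.74 ± 0.30 (95% interval -1.36 to -0.12, adjusted p = 0.23), was the 1 gene with an unadjusted p under 0.05, an ordinary linear model called 0, and array weights called 2. Tap1 differed by -0.88 without the array with acinar signal (adjusted p = 0.11), the median was -0.42 against -0.23 with it, 0 of 9 were called and 4 had an unadjusted p under 0.05.

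**Figure D3:**
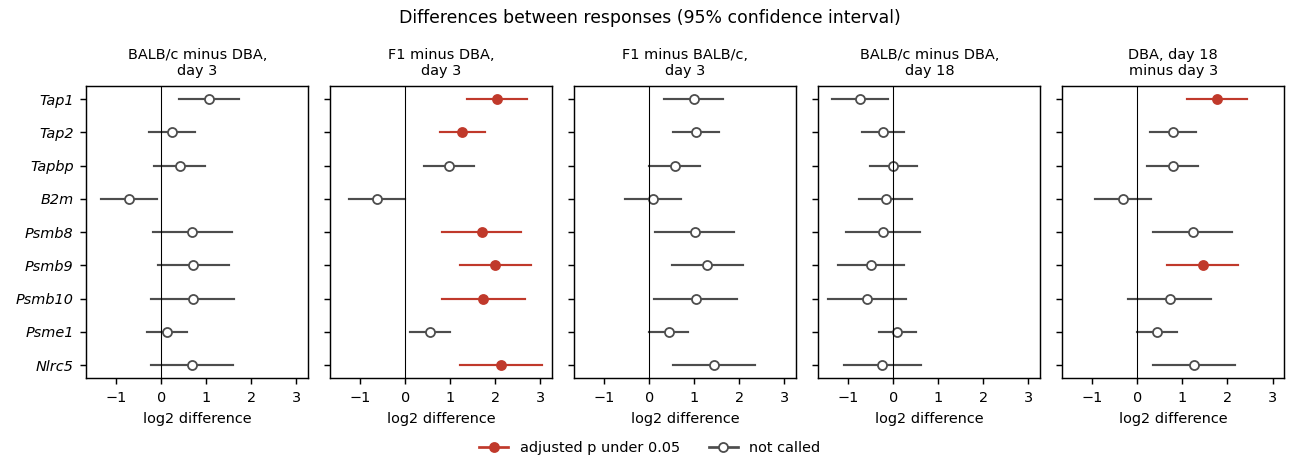
Differences between pairs of log2 responses (horizontal axis, first-named response minus the other) for the 9 genes, with 95% confidence intervals and filled red points where the adjusted p was under 0.05. Calls are seen in F1 minus DBA on day 3, led by Nlrc5 at 2.12, and in DBA day 18 minus day 3, led by Tap1 at 1.77.

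Untreated DBA and BALB/c mice of the day 3 run did not differ by the test for any of the 9 genes, where 7.66% of all genes did in either direction. The differences ran from -0.44 for B2m to 0.19 for Psmb10, 1 of the 9 had an unadjusted p under 0.05 (B2m), and an ordinary linear model called 0. Tap1 averaged 482 ± 108 in DBA controls and 459 ± 78 in BALB/c controls (SD, n = 3 each), a difference of 0.06 with a 95% interval of -0.41 to 0.53.

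Across the 32 arrays most of the genes varied together, a description in which the points share strains, treatment and runs. Over the 36 pairs of genes Pearson's r ran from -0.502 to 0.981 with a median of 0.875. Psmb8 and Psmb9 reached 0.981, Tap2 and Psmb9 0.973, and Tap1 and Psmb9, whose promoter windows overlap, 0.968. Against the mean of the 9 standardized levels, r was 0.978 for Tap1, 0.977 for Tap2, 0.975 for Psmb9, 0.968 for Psmb8, 0.961 for Nlrc5, 0.931 for Tapbp, 0.905 for Psme1, 0.778 for Psmb10 and -0.337 for B2m. Each of the 9 is part of that mean, which raises its r, so these values cannot be set against those of genes outside the set. Over the 31 arrays without the one with acinar signal the pairs ran from -0.483 to 0.981 with a median of 0.919, and Psmb10 differed most: its r was 0.859 with Psme1 and 0.958 with Psmb8, against 0.496 and 0.742 over all 32. The named genes outside the set with the highest r against that mean over 32 arrays were Uba7 at 0.974, Mx1 at 0.968, Lgals9 at 0.967, Dhx58 at 0.967, Ogfr at 0.966, Ifi209 at 0.966, Irf7 at 0.965 and Bst2 at 0.964. Uba7 encodes the activating enzyme for ISG15, Mx1 an antiviral GTPase, Dhx58 an RNA sensor of the RIG-I family, Irf7 an interferon regulatory factor and Bst2 the virus-tethering protein tetherin.

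**Figure D4:**
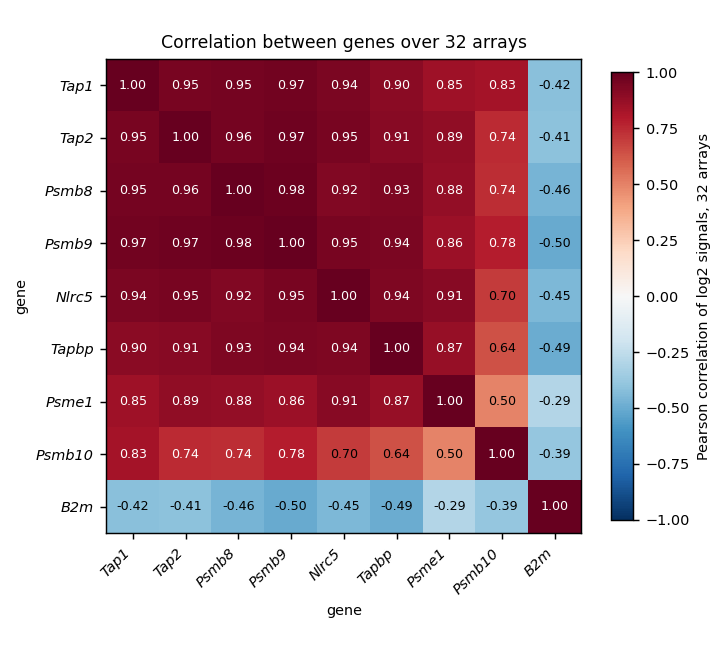
Pearson correlation between the log2 signals of each pair of the 9 genes over 32 arrays (colour and printed value). Pairs among Tap1, Tap2, Psmb8, Psmb9 and Nlrc5 are deep red, Psmb8 with Psmb9 highest at 0.981, and the row of B2m is blue apart from B2m itself.

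The rest of the class I pathway was read from gene lists. Of 19 MHC class I heavy chain and related genes, 7 could be tested, because 7 of the others had shared probe sets alone, 2 had a probe set of their own under the filter on dim signals and 3 had no probe set under the symbol used. Heavy chain genes have near-identical copies, and the values of the 7 tested may hold signal from these. In BALB/c, F1 and DBA mice on day 3 and BALB/c and DBA mice on day 18, 2, 2, 1, 2 and 3 of the 7 rose and 2, 1, 1, 1 and 2 fell. Of all genes tested 18.3%, 18.6%, 16.4%, 21.7% and 22.4% rose, and 17.2%, 18%, 13.4%, 22.2% and 25% fell, in the same order. These shares apply to the lists below as well, and a count near them is no result about a list. The classical H2-K1 and H2-D1, named here after their values were seen, gave -0.11, 0.05, 0.21, -0.20 and 0.32 for H2-K1 and -0.20, 0.11, 0.36, 0.08 and 0.40 for H2-D1 in BALB/c, F1 and DBA mice on day 3 and BALB/c and DBA mice on day 18, of which the last H2-D1 value alone was called (adjusted p = 0.029). The nonclassical H2-T24 rose by 2.37 in BALB/c and 3.93 in F1 mice on day 3 and by 2.92 in BALB/c and 3.63 in DBA mice on day 18. In DBA mice on day 3 it differed by 0.54 without a call (adjusted p = 0.12), and the F1 response exceeded the DBA response by 3.39 (3.7e-06). H2-M3, which presents N-formylated bacterial peptides, rose in all 5 responses by 0.91, 1.73, 0.66, 1.21 and 1.71. Cd1d1, which presents lipids to NKT cells, fell by 1.14 in BALB/c and 1.01 in F1 mice on day 3 and by 1.38 in BALB/c and 2.16 in DBA mice on day 18. Mr1, which presents vitamin B metabolites to MAIT cells, fell by 0.92 in BALB/c and 0.81 in DBA mice on day 3 and by 0.92 in DBA mice on day 18. It was not called in F1 hybrids (-0.55) or in BALB/c mice on day 18 (-0.41, adjusted p = 0.13), where it fell by 0.72 without the array with acinar signal (0.0015). The median of the 7 ran from -0.20 in BALB/c mice on day 3 to 0.32 in DBA mice on day 18.

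The constitutive catalytic subunits did not rise with their inducible replacements. Psmb7, the counterpart of Psmb10, fell in all 5 responses by 0.40, 0.29, 0.53, 0.33 and 0.57, in the same order. Psmb6, the counterpart of Psmb9, fell by 0.44 in DBA mice on day 3 and 0.34 in DBA mice on day 18, and was not called in the other 3 responses. Psmb5, the counterpart of Psmb8, was not called in any, with differences of -0.11, -0.03, -0.17, -0.16 and -0.15. Among 11 other subunits of the core particle, 6 rose in F1 hybrids with a median over the 11 of 0.34, for example Psma7 by 0.56 and Psma4 by 0.52. In the other 4 responses 0 to 3 of them rose, 0 to 2 fell and the medians lay between -0.07 and 0.04. Among 8 activators, inhibitors and assembly factors, 1, 3, 0, 1 and 0 rose and 0, 1, 3, 2 and 2 fell. Psmg4, a chaperone of core assembly, rose by 0.46 in BALB/c and 0.76 in F1 mice on day 3 and 0.34 in BALB/c mice on day 18. Psmg3, another assembly chaperone, rose by 0.62 in F1 hybrids. Psme4, an activator that binds nuclear proteasomes, fell by 0.51, 0.44 and 0.35 in DBA mice on day 3, BALB/c mice on day 18 and DBA mice on day 18.

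Of 10 endoplasmic reticulum chaperones and trimming enzymes of class I loading, 2, 4, 4, 2 and 7 rose and 0 fell in BALB/c, F1 and DBA mice on day 3 and BALB/c and DBA mice on day 18. Pdia3, the ERp57 oxidoreductase that pairs with tapasin, named here after its values were seen, rose in all 5 by 0.43, 0.60, 0.70, 0.30 and 0.58. Tapbpl, the tapasin-related peptide editor, rose by 1.14 in F1 and 0.61 in BALB/c mice on day 3 and by 0.62 in BALB/c mice on day 18. It was not called in DBA mice on day 3 (0.17) or day 18 (0.48). Hspa5, the chaperone BiP, Uggt1, which tests the folding of glycoproteins, and Mogs, which removes the outermost glucose of new glycans, rose in DBA mice on day 18 by 1.11, 0.98 and 0.92. Mogs rose by 0.89 in DBA mice on day 3 as well, and Uggt1 by 0.51 in F1 hybrids. In BALB/c mice on day 18 none of these 3 was called, but without the array with acinar signal Hspa5 stood at 0.47 (adjusted p = 0.0028), against -0.15 with it, and 5 of the 10 rose.

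**Figure D5:**
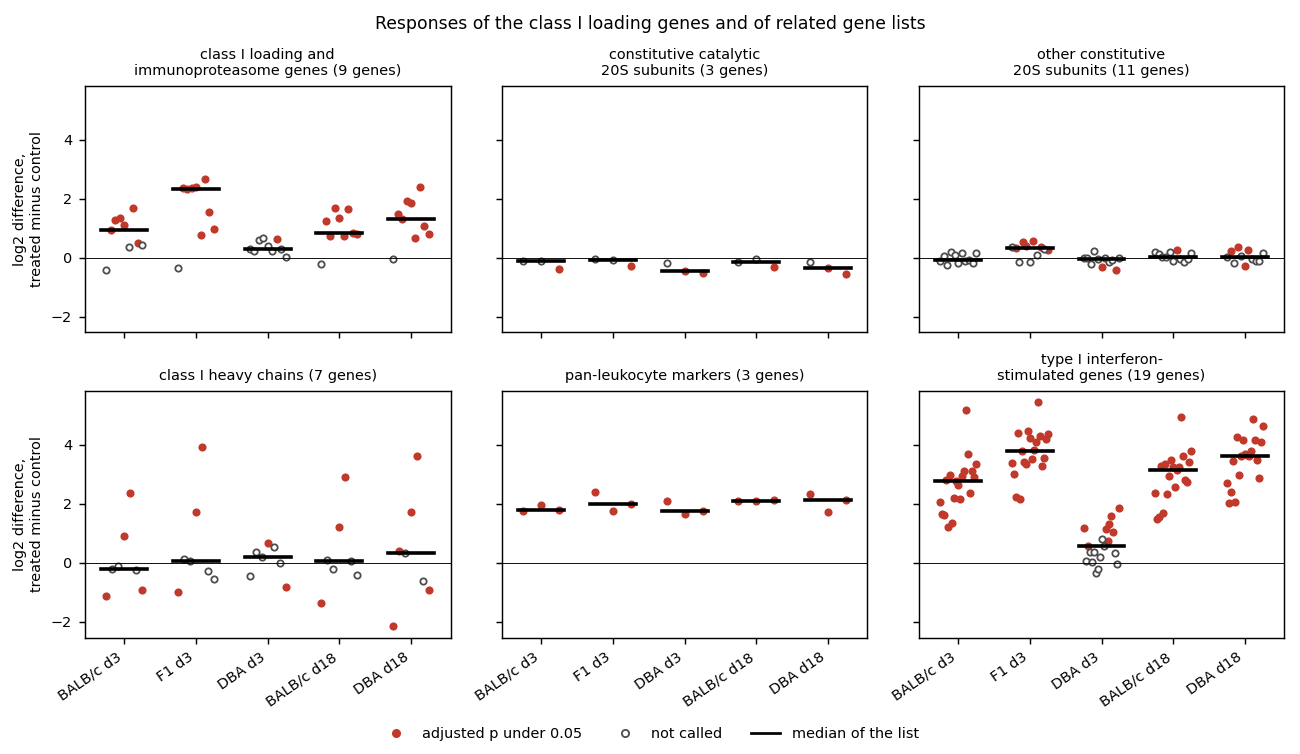
Log2 difference between treated and control arrays (vertical axis) of each tested gene in 6 lists, by strain and day, with filled red points where the adjusted p was under 0.05 and bars at the list median. The pan-leukocyte medians lie between 1.77, in DBA mice on day 3, and 2.14 in the 5 responses. Those of the class I loading genes and of the type I interferon-stimulated genes are also lowest in DBA mice on day 3, at 0.29 and 0.58.

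Of 14 regulators of class I transcription, 5, 7, 6, 6 and 7 rose in the 5 responses, and at most 1 fell in each. Irf8, a regulator of myeloid cells, rose by 1.91, 2.35, 1.56, 2.16 and 1.97. Stat2 and Irf9, partners in the factor that interferon alpha and beta activate, rose by 1.54, 2.80, 0.87, 1.50 and 2.84 and by 1.41, 2.07, 0.92, 1.53 and 2.07, and Irf1, which gamma interferon induces, by 0.78, 1.36, 0.44, 0.74 and 1.07, in BALB/c, F1 and DBA mice on day 3 and BALB/c and DBA mice on day 18. The F1 response exceeded the DBA response for Stat2 by 1.92 (adjusted p = 0.00014). All 19 tested type I interferon-stimulated genes rose in 4 responses and 8 in DBA mice on day 3, with medians of 2.78, 3.78, 0.58, 3.15 and 3.63. Oas3, an oligoadenylate synthetase that senses double-stranded RNA, rose by 5.17, 5.46, 1.32, 4.95 and 4.87. The F1 response exceeded the DBA response for 19 of the 19, and the BALB/c response exceeded it for 11. On day 3, 1.68% of all genes had a larger response in F1 than in DBA mice. In either direction 0.499% differed between BALB/c and DBA mice on day 3. The 11 tested interferon-gamma response genes had medians of 1.69, 2.46, 0.46, 1.52 and 1.88, with 9, 11, 3, 10 and 10 higher and 0, 0, 1, 0 and 0 lower. Cxcl10, a chemokine for activated T cells, rose by 4.74 in F1 hybrids. Cxcl9, which shares its receptor CXCR3 and is named here after its values were seen, rose by 2.46 in F1 hybrids and fell by 1.68 in DBA mice on day 3 (adjusted p = 0.011). That was the change of greatest size in the list in DBA mice on day 3. Ifng, Ifnb1, Ifna2 and Ifna4 were not among the genes tested, because their own probe sets were under the filter on dim signals.

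Markers of other cell types differed with the same treatment. The 3 pan-leukocyte markers Ptprc, Coro1a and Laptm5 rose in all 5 responses, with medians of 1.80, 1.98 and 1.77 in BALB/c, F1 and DBA mice on day 3 and 2.11 and 2.14 in BALB/c and DBA mice on day 18. None of the 3 was called in a difference between responses, where few genes were. The shares of all genes were 0.223% to 0.983% in comparisons counted in either direction. A larger response was called for 1.68% in F1 than DBA mice on day 3, and for 2.47% in DBA mice on day 18 than on day 3. A lack of calls among 3 genes is therefore no result about them. Ptprc, the CD45 phosphatase of leukocytes, rose by 1.77 in DBA mice on day 3. Of 8 T and NK cell markers, 2, 6, 0, 6 and 5 rose and 0, 0, 0, 0 and 1 fell, with medians of 0.58, 1.08, 0.24, 1.22 and 1.07, and their summed signals were 2623 to 4294 in treated F1 hybrids, against 700 to 872 in F1 controls. Their summed signals in DBA mice on day 3 were 827 to 1117 in treated arrays, against 534 to 873 in controls. The largest changes in the list were rises of Gzma, Nkg7 and Klrk1 by 2.77, 2.72 and 2.61 in F1 hybrids. Cd4 rose by 2.26 in BALB/c mice on day 18. Cd8a, a marker of cytotoxic T cells named here after its values were seen, gave -0.20, -0.49, -0.20, -0.35 and -0.69, of which the last, in DBA mice on day 18, was called (adjusted p = 0.02). The 5 adipocyte markers had medians of -1.21, -0.78, -0.45, -1.17 and -1.88, and 3, 2, 0, 5 and 4 of them fell. The medians in BALB/c mice on day 18 without the array with acinar signal were 1.86 for the pan-leukocyte, 1.13 for the T and NK cell and -1.42 for the adipocyte markers. The part of these cell markers in the class I responses was not tested.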

How the data were processed

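The 32 samples of mesentery RNA were each hybridised to 1 Affymetrix mouse array. The authors deposited intensity values per probe set on a linear scale. Per the submitters' processing notes they were made with GCOS and MAS5 (the sources used here do not give their versions). Every array has a 2% trimmed mean of 500.0, and 13 values are 0. Values of single probes were not used, so the background correction is the authors'. Intensities tell nothing about depth, and the number of arrays limits the precision.

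Groups came from the titles. Replicate numbers follow accession order and pair nothing. The meaning of the title codes is not given in the sources used here. Of 45101 probe sets, 34945, array controls left out, carried a single symbol in the platform annotation. Probe sets were kept if above 103.7, the median of all values, on at least 3 arrays, and each gene was read from its brightest one. All arrays entered 1 fit of log2(signal + 24.9), the offset being the 25th percentile, with limma 3.58.1 in R 4.3.3: a mean per group, moderated variance with an intensity trend, two-sided tests, and Benjamini-Hochberg adjustment over 13016 genes per comparison. The steps were tested on simulated data. Alternatives changed the offset, filter, normalization, variance model, arrays in the fit, probe set and Xist covariate, and left out each array in turn. For the related lists and the correlations, leaving out the array with acinar signal was chosen after seeing the data.

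All 9 measured genes are named in every comparison. Of each related list, up to 4 members with the largest change in any response are named, others only where said to be chosen after their values were seen, and for likeness the 8 other genes with the highest correlation, skipping predicted genes. The genes, lists and motifs were chosen with earlier results of these data known. Promoter sequences are from RefSeq on GRCm38.p6.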

Additional observations from a re-analysis of the deposited data

Results flagged for a closer look

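Psmb10 read 7225 on BALB/c control replicate 2 of the day 18 run, far from the other 3 arrays of its group, at a gap that was 0.94 of the group's whole range. The check was run on 9 genes in the 2 groups of 4 arrays, 18 times in all, and chance flags about 1 in 20, so about 1 flag in this many. It is the array with acinar signal, and its part in the value was not tested.

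A total of 6 genes answered pristane differently in F1 hybrids and DBA mice on day 3 by the test of the difference itself (limma, adjusted over all genes): Tap1 by 2.04, Tap2 by 1.27, Psmb8 by 1.70, Psmb9 by 1.99, Psmb10 by 1.73 and Nlrc5 by 2.12 on the log2 scale, each larger in F1 hybrids. All 3 treated F1 arrays had high Xist and all 3 F1 controls low Xist, whereas DBA arrays of day 3 were high throughout. In DBA mice the response differed between day 18 and day 3 for Tap1 by 1.77 and Psmb9 by 1.45, each larger on day 18.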

How the results depend on the processing

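Of 4788 recomputed values for the 9 genes in 12 comparisons, 4656 kept their direction and their side of the threshold, 54 lost a call, 78 gained one and 0 reversed. The counts of called genes were within 1.5 times those reported, apart from the following. In DBA mice on day 3, where 1 gene was called, quantile normalization and median centring gave 0, averaging the probe sets of a gene 2, a separate fit per comparison 3 and array weights 4. For BALB/c minus DBA on day 3, with 0 called, the separate fit gave 1 and array weights 2; for F1 minus BALB/c on day 3, with 0, they gave 4 and 8; and for DBA day 18 minus day 3, with 2, they gave 8 and 8. Array weights gave 2 for BALB/c minus DBA on day 18 and 1 for DBA minus BALB/c controls, where 0 were called. Leaving out 1 array at a time gave 4 to 8 called genes in BALB/c, 8 to 9 in F1 and 0 to 4 in DBA mice on day 3, and 7 to 8 in BALB/c and 8 to 8 in DBA mice on day 18. It gave 4 to 8 for F1 minus DBA, 0 to 4 for F1 minus BALB/c, 1 to 7 for DBA day 18 minus day 3 and 0 to 0 for the other differences. The upper ends in DBA mice on day 3 (4), F1 minus BALB/c (4) and DBA day 18 minus day 3 (7) came without BALB/c control replicate 2 of the day 18 run; F1 minus BALB/c was 1 without BALB/c treated replicate 3 of day 3. Apart from the narrower spread without that control, the cause of these changes was not tested. No paired analysis was possible because the labels give no replicate numbers shared between groups. With 3 or 4 arrays a group, the standard errors of 0.13 to 0.32 of the responses limit what could be called.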

Other observations

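Other cell markers were measured beside the class I loading genes, and the values that follow are in BALB/c, F1 and DBA mice on day 3 and BALB/c and DBA mice on day 18. Of 5 monocyte and macrophage markers, 5, 4, 5, 5 and 5 rose, with median log2 changes of 2.20, 2.08, 1.94, 2.42 and 1.99. Fcgr1, the high-affinity receptor for immunoglobulin G, rose by 3.59, 4.99, 2.08, 4.24 and 4.36. Of 4 neutrophil markers, 4, 3, 3, 4 and 4 rose, with medians of 4.57, 3.61, 4.06, 4.50 and 3.13, S100a9 by 6.08, 4.87, 5.50, 5.54 and 3.18. Of 4 dendritic cell markers, 3, 2, 3, 2 and 4 rose, among them Itgax, the CD11c integrin, by 2.16, 2.24, 2.99, 3.37 and 3.65. Of 5 plasma cell markers, 4, 3, 2, 4 and 4 rose, with medians of 1.04, 0.86, 0.80, 1.57 and 1.65. Of 4 B cell markers, 0, 1, 0, 2 and 0 rose. Of 5 endothelial markers, 3, 4, 2, 3 and 5 fell, with medians of -0.67, -0.71, -0.50, -0.65 and -1.09. Of 5 mesothelial markers, 1, 2, 2, 3 and 3 rose and 1, 0, 0, 1 and 1 fell. None of 5 pancreatic acinar markers was called, and without the array with acinar signal 1 rose in BALB/c mice on day 3 and 1 on day 18. Their summed signals in BALB/c mice on day 3 were 1091 to 4190 in treated arrays, against 180 to 256 in controls. The part of this in the response was not tested.

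Among 7 interferon receptor and kinase genes, 4, 3, 4, 5 and 4 rose. Ifngr2, a chain of the interferon-gamma receptor, rose by 0.86, 0.67, 0.95, 1.24 and 1.33, Ifnar1, a chain of the receptor for interferon alpha and beta, by 0.64, 0.77, 0.82, 1.00 and 0.91, and Jak2, a kinase of the interferon-gamma receptor, by 0.68, 0.71, 0.53, 1.28 and 1.24. These 3 genes were called in DBA mice on day 3 as well, and their part in the class I responses was not tested.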
